A study of Mus musculus with 2 samples.

Results

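The Mir297, Mir466, Mir467 and Mir669 genes are mouse microRNA (miRNA) genes that lie mostly in a single intron of Sfmbt2. They were chosen by name alone, as every measured gene with 1 of those 4 numbers followed by a letter, with or without a copy number. The rule found 67 of the 1973 genes in the table, of which 58 lie within Sfmbt2 on chromosome 2 and 9 lie elsewhere. Small RNA below 30 bases was measured in midbrain of B6NCrl mouse embryos at 15.5 days of age, in a pool of 78 embryos (replicate 1) and a pool of 62 (replicate 2). Per the labels, the pools mixed male and female embryos, were healthy tissue and are biological replicates. With 1 tissue and 1 age, no contrast between conditions could be made. In such pooled tissue, fewer cells of a type and less RNA per cell cannot be told apart.

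MicroRNAs are cut from hairpin transcripts by Drosha and Dicer and lower the output of messenger RNAs, which they recognise mainly through the seed near their 5′ end. Sfmbt2 encodes a Polycomb group protein and is imprinted, with expression from the paternal copy in extraembryonic tissue. The miRNA cluster in its intron is known from mouse and rat, is large and repetitive, and is best known from placenta and from embryonic stem cells. Many of its hairpins consist in part of alternating UG and CA letters.

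Mature sequences in the RefSeq table of build GRCm38.p6 were matched for 8 of the 67 members. They are shown because they let a reader see the UG and CA letters of the families. All 8 belong to genes outside Sfmbt2. Each runs 5′ to 3′, with the seed (bases 2 to 8) in capitals.
Mir466i (chr13:17747552-17747573, plus strand): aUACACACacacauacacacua
Mir466j (chr10:60960802-60960824, plus strand): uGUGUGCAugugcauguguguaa
Mir466k (chr3:85467396-85467418, plus strand): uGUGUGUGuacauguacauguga
Mir466q (chr3:28419988-28420007, plus strand): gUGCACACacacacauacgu
Mir467f (chr11:69635419-69635439, minus strand): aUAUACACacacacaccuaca
Mir467g (chr5:34732872-34732892, minus strand): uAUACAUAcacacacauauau
Mir467h (chr9:115381898-115381919, plus strand): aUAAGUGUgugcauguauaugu
Mir669n (chr3:115979905-115979924, plus strand): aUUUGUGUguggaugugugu

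No pair of these 8 shared a seed, although all are named after 3 family numbers. The mature sequence of Mir467h was found whole in 2 other annotated miRNA genes, Gm25510 and Gm26303, and those of the other 7 in none. A shorter run of 16 bases was shared with at least 1 other miRNA gene by 7 of the 8, Mir466q being the exception. Mir669n shared such a run with Mir669c alone, and Mir467h shared one with Mir669l among others. Both of those partners lie in Sfmbt2 and are described with their counts below.

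The deposited counts list 7557669 reads in replicate 1 and 13115314 in replicate 2, of which 3429704 and 5752476 were assigned to the sense strand of a miRNA gene. Levels are given as CPM, the reads of a gene per 1000000 sense reads of its library, so that 1 read was worth 0.292 CPM in replicate 1 and 0.174 in replicate 2. Read counts were not divided by gene length, because a small RNA read covers a whole mature miRNA. A count of 0 allows up to 3 counts of reads with a single mapping place, which is 0.875 CPM in the first pool and 0.522 in the other. Reads with several mapping places were 43.5% and 43.1% of mapped reads. In the count format of these tables they are given to no gene, so levels of copied genes are uncertain. Intervals and limits here cover counting error only. The tissue label was checked with miRNA marker lists. Of the brain and neuron list, 11 of 12 genes had at least 1 CPM in both libraries, with summed levels of 30515 and 34080 CPM. Much of that was Mir137 (10800 and 11585 CPM) and Mir135b (9617 and 11678 CPM). The Mir124a copies were low: Mir124a-1 had 4.08 and 3.30 CPM, Mir124a-2 4.08 and 2.43, and Mir124a-3, the gene below 1 CPM, 0.583 and 0.522. Their counts also leave out reads with several mapping places, so they do not show that the miRNA of these copies was scarce. The blood list had 5 of 5 matched genes detected (511 and 505 CPM) and the liver list 2 of 2 (132 and 162 CPM). Of the muscle list 3 of 6 were detected (35.6 and 71.1 CPM), and Mir1a-1, Mir133a-1 and Mir133a-2 had 0 counts. A 0 covers only reads with a single mapping place, so these 3 do not show that muscle was absent.

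The families held a small share of the midbrain counts, nearly all of it from inside Sfmbt2. Members took 16165 sense reads in replicate 1 and 25278 in replicate 2. That was 0.471% of the counts (95% exact Clopper-Pearson interval 0.464 to 0.479) and 0.439% (0.434 to 0.445), or 0.455 ± 0.0226% (SD, n = 2). The intervals of the libraries did not overlap, so the share differed by more than counting error, although by little. Genes inside Sfmbt2 supplied all member reads but 1. The 9 genes elsewhere gave 1 read in replicate 1 and none in replicate 2, at or below the limit of 3 counts in each library. No read was counted on the opposite strand of any member in either library. That was not particular to the members. The Dlk1-Dio3 run compared below also had 0 such reads in each library. The 795 other miRNA genes within a protein-coding gene on its strand had 82 and 131. Over all miRNA genes 2.23% and 2.36% of reads were on the opposite strand. Among them, Gm25927 held 19619 and 33136 and Gm24321 held 17967 and 37115, each gene with 0 sense reads.

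Only 10 of the 67 members reached 1 CPM in both libraries, or 14.9%, against 22.5% of all 1973 genes. All 10 lay in Sfmbt2. A further 12 members had some reads, and 45 had none in either library. The gene just below the line was Mir669f, with 0 and 7 reads, or 0 and 1.22 CPM. By family number, 3 of 17 Mir467 genes, 5 of 21 Mir669 genes, 1 of 24 Mir466 genes and 1 of 5 Mir297 genes were detected. Reads were spread less evenly than detected genes. Mir467 genes held 83.0% and 83.4% of member counts in replicates 1 and 2, and Mir669 genes 16.3% and 16.1%. Mir466 genes, the most numerous, held 0.458% and 0.400%, and Mir297 genes 0.173% and 0.0673%.

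**Figure D1:**
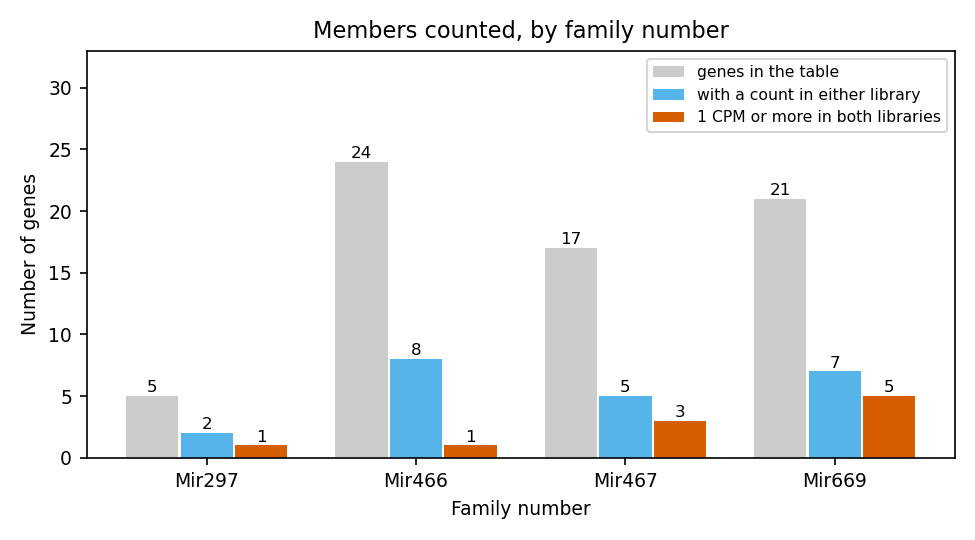
Number of member genes (vertical axis) for each family number (horizontal axis): genes in the table, genes with a read in either library, and genes with at least 1 CPM in both. Of 24 Mir466 genes 1 was detected, and of 21 Mir669 genes 5 were.

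Mir467c, Mir467e and Mir467d, which derive from related hairpins, were the most counted members and stood close together. Mir467c (chromosome 2, 10473931 to 10474027, mm10) had 4297 reads or 1253 CPM in replicate 1 and 7519 reads or 1307 CPM in replicate 2. Mir467e (10505721 to 10505807) had 4634 reads or 1351 CPM and 6811 reads or 1184 CPM. Mir467d (10507630 to 10507714) had 4492 reads or 1310 CPM and 6747 reads or 1173 CPM. Their means were 1280 ± 38.3, 1268 ± 118 and 1241 ± 96.8 CPM (SD, n = 2), and the ranges of the 3 genes overlapped. Their order was not the same in both libraries, with Mir467e highest in replicate 1 and Mir467c highest in replicate 2. They ranked 80, 81 and 83 by mean CPM among all genes. Together they held 83.0% of member counts in replicate 1 and 83.4% in replicate 2.

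Of the 21 Mir669 genes, 3 formed the next tier. Mir669o (10514300 to 10514395) had 384 and 353 CPM, with a mean of 368 ± 21.7 CPM. Mir669l (10468971 to 10469068) had 224 and 196 CPM, with a mean of 210 ± 19.8 CPM. Mir669c (10509296 to 10509404) had 139.95 and 134 CPM, with a mean of 137 ± 4.56 CPM. The step from Mir467d to Mir669o was 3.37-fold, from Mir669o to Mir669l 1.76-fold and from Mir669l to Mir669c 1.53-fold in mean CPM. None of these steps had overlapping ranges over the libraries, so the order of these 3 genes was the same in both.

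The last 4 detected members were read far less. Mir466n (10513741 to 10513834), the single Mir466 gene of the 10, had 68 and 94 reads, or 19.8 and 16.3 CPM. Mir669e (10467495 to 10467613) had 52 and 111 reads, or 15.2 and 19.3 CPM, a range that overlapped that of Mir466n. Mir669h (10518155 to 10518279), the most downstream member, had 24 and 36 reads, or 7.00 and 6.26 CPM. Mir297a-2 (10472254 to 10472343), the single detected Mir297 gene, had 27 and 17 reads, or 7.87 and 2.96 CPM. The ranges of Mir669h and Mir297a-2 also overlapped, so neither pair could be ordered. Mir669c exceeded Mir466n 7.56-fold in mean CPM, the largest step between neighbouring members in this order.

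The 10 levels came from both ends of the cluster and none from its middle. The 58 genes inside Sfmbt2 spanned 51.6 kb, all on the plus strand and all in a single intron of 62.5 kb (10461473 to 10523944), which is intron 11 of 22 in 1 annotated transcript of Sfmbt2 and intron 10 of 22 in another. Starting with Mir467a-1, the 10 Mir467a genes and Mir467b followed each other at nearly even distances. Of the 10 distances between their starts, 9 lay between 2413 and 2470 bases, and the last was 4880. The members from Mir467a-1 to Mir466b-3, named here as the array and delimited after their values were seen, numbered 24 over 27.3 kb. They had 0 reads in replicate 1 and 5 in replicate 2, namely 1 of Mir467a-1, 2 of Mir467b and 2 of Mir466b-3. The 15 members upstream, from Mir466m to Mir669k, had 5144 and 8782 reads, and 4 of them were detected. The 19 downstream, from Mir467e to Mir669h, had 11020 and 16491 reads, and 6 were detected. The upstream section thus held 31.8% and 34.7% of member counts and the downstream section 68.2% and 65.2%.

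**Figure D2:**
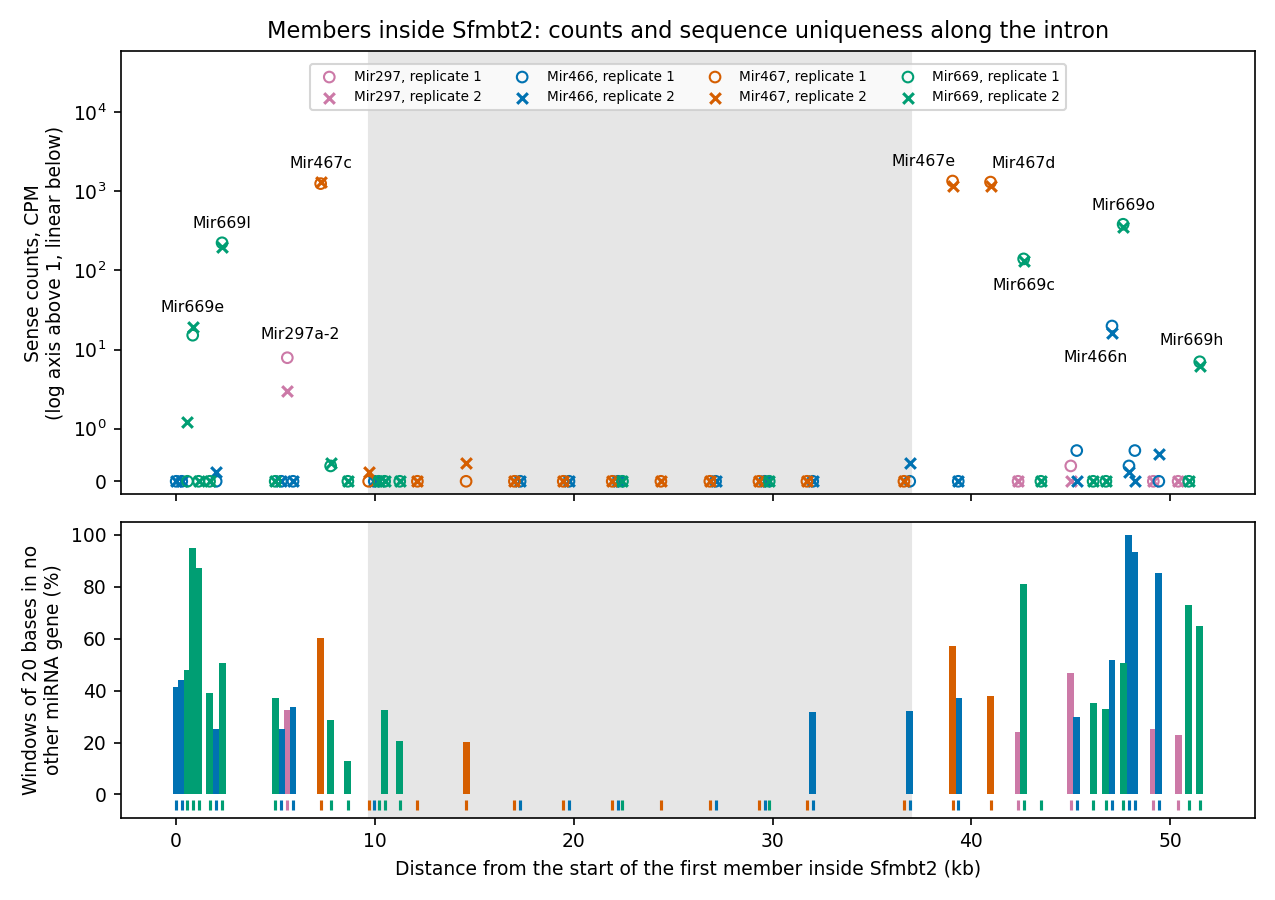
Members inside Sfmbt2 by distance from the start of the first one (horizontal axis, kb). Above, sense CPM in replicate 1 (circles) and replicate 2 (crosses), on an axis that is logarithmic above 1 and linear below. Below, the percent of each gene's 20-base windows found in no other annotated miRNA gene, with a tick for every gene. The shaded array from Mir467a-1 to Mir466b-3 has 5 reads in all, and 19 of its 24 genes have no unique window.

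The sections also differed in sequence. Each gene's transcript in GENCODE M21 was divided into overlapping windows of 20 bases, about the length of a mature miRNA. A window was taken as unique when no other miRNA gene of that release held it on either strand. The rest of the genome was not searched, so a unique window need not be one to which a read maps at a single place. Of the 67 members, 65 shared at least 1 window with another miRNA gene. In the array, 19 of 24 members had no unique window at all, and the highest share was 32.7%. Mir467a-1 was among these 19 and still had 1 read in replicate 2. Mir669a-2, in the downstream section, had no unique window either, and had 0 reads in both libraries. The median share of unique windows was 39.2% in the upstream section and 46.7% in the downstream section. Over all 1894 genes with a transcript it was 98.9%.

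Copies within the array were often identical letter for letter. The transcripts of 17 members equalled that of at least 1 other miRNA gene, all 17 were in the array, and they had 0 reads in both libraries. Mir467a-2, Mir467a-4, Mir467a-5, Mir467a-7, Mir467a-8 and Mir467a-9 had the same transcript, as did Mir467a-3, Mir467a-6 and Mir467a-10. Mir466b-5 equalled Mir466b-7, Mir466b-4 equalled Mir466b-6, and Mir669p-1 equalled Mir669p-2. A read from an identical copy has several mapping places and is given to no gene. For these 17 genes a count of 0 cannot be told apart from expression whose reads were set aside.

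Sharing was partial among the detected members, none of which had an identical copy. Their shares of unique windows ran from 32.4% for Mir297a-2 to 95% for Mir669e, with a median of 54.7%. Mir467c had 60.3% unique windows and shared the others with 16 miRNA genes, 15 of them members. Mir467e had 57.4% and also shared with 16 genes, while Mir467d had 37.9% and shared with 14. Mir669c, at 81.1%, and Mir669e shared 17 and 5 windows respectively. Levels of these genes may leave out reads from their shared stretches, and the size of that loss was not tested.

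Outside the array, 8 of the 10 detected members had at least 50% unique windows (median 54.7%), against 5 of the 24 members inside Sfmbt2 that were not detected (median 36.3%). Those 5 were exceptions, with much unique sequence and few or no reads. Mir466g, with 100% unique windows, had 1 read in each library. Mir466h (93.5%) had 2 reads and none, and Mir466l (85.3%) had none and 3. Mir669b (87.2%) and Mir669i (73.1%) had no reads in either library. Their counts were at or below 3 in each library, in the same intron as Mir467c. These shares are over the whole transcript, and no mature sequence was matched for any of the 5. Mir669i shared 29 windows with 47 miRNA genes and Mir669b 10 windows with 13, whereas Mir466g shared 0. Whether their mature sequences lie in shared stretches was not tested. Counts hold only reads with a single mapping place, so detection and the share of unique windows are not independent measures. The contrast also leaves out the array, which was delimited after its values were seen.

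**Figure D3:**
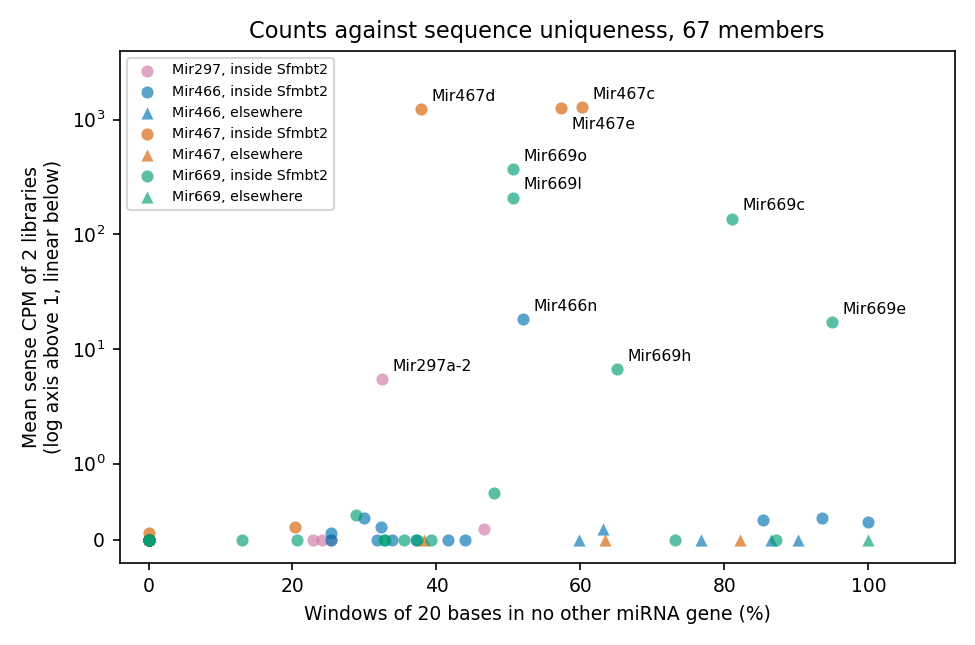
Mean sense CPM over the libraries (vertical axis, logarithmic above 1 and linear below) against the percent of unique 20-base windows (horizontal axis) for the 67 members. Circles are genes inside Sfmbt2 and triangles genes elsewhere. All genes with no unique window lie at or near 0, and so do the triangles, which start at 38.2%.

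The 9 members outside Sfmbt2 gave almost no reads. Their shares of unique windows ran from 38.2% for Mir467h to 100% for Mir669n, with a median of 76.7%, and 8 of them were above 50%. These shares are over the whole transcript: within the mature sequences printed above, 7 of 8 shared a 16-base run with other miRNA genes, Mir466j with 20 genes, Mir467f with 19 and Mir466i with 16. The read in replicate 1 came from Mir466q (chromosome 3, 28419943 to 28420018), which lies within Tnik on the same strand. Mir467f lies within Fxr2, Mir466i within Cdk13, Mir466k within Gm37240, Mir669n within Slc30a7 and Mir467g within Grk4, each opposite to the host's strand. Mir466j, Mir466f-4 and Mir467h lie in no annotated gene other than a miRNA. All of these 8 had 0 reads in both libraries. That bounds only reads with a single mapping place, and for Mir467h, whose mature sequence lies whole in 2 other genes, the 0 cannot be told apart from reads set aside.

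Runs of alternating TG or CA letters were long in the families and longest outside Sfmbt2. The median longest run was 9 bases in the 67 members and 4 bases over all genes with a transcript. A run of at least 12 bases was present in 16 members (23.9%) and in 6.71% of all genes. It was present in 6 of the 9 genes elsewhere, with 28 bases in Mir466q and 23 in Mir466i and Mir466k. Of the detected members, Mir669c and Mir669h had runs of 15 bases and Mir669e 12, while Mir467c and Mir467e had 8 and Mir467d 9.

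The span of Sfmbt2 held, on its strand, 49 more measured miRNA genes that the name rule left out, 48 of them with Gm symbols. They added 9 reads in replicate 1 and 22 in replicate 2, and none was detected in both libraries. Mir466, which has no letter, had 0 and 6 reads, or 0 and 1.04 CPM. Mir297-1, also without a letter and on chromosome 7, had none. Of these 49 genes, 22 had no unique window. All 107 miRNA genes within Sfmbt2 together held 0.472% and 0.440% of counts, hardly more than the members alone.

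For comparison, 30 of 34 genes were detected in the run from Mir379 to Mir3072 of the Dlk1-Dio3 region, another large imprinted miRNA cluster. It held 7.21% and 8.06% of counts, and its median share of unique windows was 100%, against 32.7% in the 67 members. Of 795 other miRNA genes lying within a protein-coding gene on its strand, 28.2% were detected, again with a median of 100% unique windows. The part of shared sequence in the lower share of detected members was not tested.

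Markers of tissues in which the Sfmbt2 cluster is best known were set beside these levels. Of the trophoblast and placenta list, 4 of 4 matched genes were detected, with summed levels of 7371 and 7865 CPM. Nearly all of that was Mir322, at 7138 and 7670 CPM, whereas Mir675 had 7.58 and 6.43 CPM. Of the pluripotent stem cell list, 6 of 10 matched genes were detected, with 844 and 1049 CPM in all. Mir302a led it at 340 and 415 CPM, and Mir290a and Mir295 had 0 counts. Whether the pools held such cells was not tested, nor was any part of theirs in the member counts.

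Between the pools, Mir467e, Mir467d, Mir669l and Mir669o were slightly higher in replicate 1, whereas Mir467c and Mir669c did not differ beyond counting error. Ratios are replicate 2 over replicate 1 after TMM scaling, on the log2 scale of CPM with 1 added. Mir467e had a log2 ratio of -0.22 (95% counting interval -0.28 to -0.17; adjusted p 7.39e-15) and Mir467d of -0.19 (-0.25 to -0.14; 6.36e-11) in the two-sided conditional exact binomial test. Mir467c had 0.03 (-0.03 to 0.08; 0.651), and its interval lay apart from those of Mir467e and Mir467d. Mir669l (-0.23) and Mir669o (-0.15) were lower in replicate 2 as well, with adjusted p of 0.00571 and 0.0167 in that exact test. Mir669c had -0.10 (-0.27 to 0.07; adjusted p 0.556, exact binomial test). Mir297a-2 had the largest ratio at -1.19 (-2.41 to -0.52; adjusted p 0.00924, exact binomial test), from 27 and 17 reads.

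In total, 5 of the 22 members with a read were higher in replicate 1 by that test, and 10% of the 717 genes tested were (72 genes). None was higher in replicate 2, where 9.76% of all genes were, and none was at an unadjusted p under 0.05 either. The median log2 ratio of the 10 members of at least 1 CPM was -0.18, with 8 below 0 and 2 above, and that of the 474 such genes in all was -0.0023. These tests compare the libraries and not a condition, since each pool had 1 library. When a coefficient of variation of 10% was allowed for in edgeR's exact test, no member passed at an adjusted p under 0.05 (2 at an unadjusted p, Mir669f and Mir297a-2), and 0.418% of all genes did. The counts in both libraries differed by more than sampling noise, so they were kept as separate replicates. That was tested over the 469 genes with at least 10 reads in the libraries together (chi-square 27185 on 468 degrees of freedom).

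**Figure D4:**
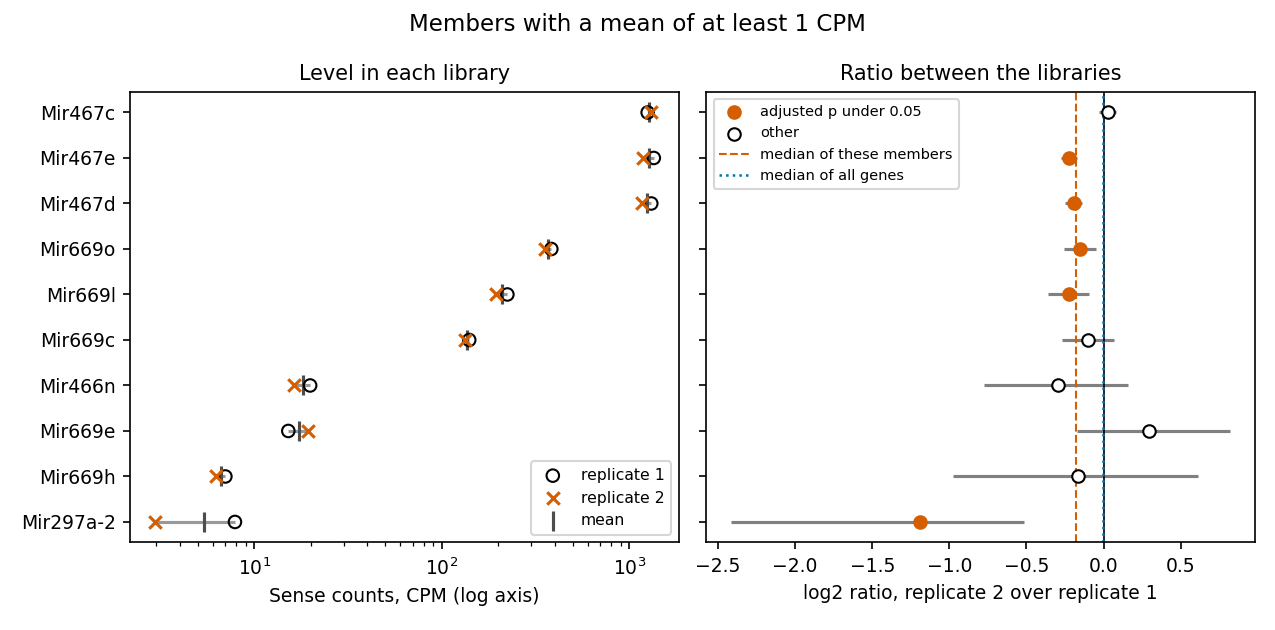
The 10 members with a mean of at least 1 CPM. Left, sense CPM in each library and the mean on a log axis. Right, the log2 ratio of replicate 2 over replicate 1 with 1 CPM added, with 95% counting intervals computed without that addition, and the medians of these members (-0.18) and of all genes (-0.0023). Filled points have an adjusted p under 0.05 and lie left of 0.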

How the data were processed

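The authors deposited whole read counts per miRNA gene, not normalized, for each of 2 libraries: without regard to strand, on the sense strand and antisense. Per the readme the authors supplied, reads were aligned to mm10 with GENCODE M4. For the aligner and the counter, no name is given in the sources used here. Their layout is that of STAR's gene counts, where reads with several places go to no gene. Rows naming no gene held 13.4% and 16.9% of reads (unmapped), 37.7% and 35.8% (several places), 3.57% and 3.43% (outside genes) and 0% (ambiguous), and were kept out of totals and tests.

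Names and positions came from GENCODE M21 on the same assembly, which matched 1894 of 1973 identifiers. The other 79 held 2 and 5 reads. CPM uses sense totals. The pools were compared with the exact binomial test (scipy 1.17.1, Benjamini-Hochberg over 717 genes with a count) after TMM scaling (edgeR 4.0.16, R 4.3.3). DESeq2 1.42.0 size factors were an alternative. Mature sequences were matched for 8 members, so sharing over all members was read from gene transcripts, which differs from the plan. Sequences were likewise planned for members of 100 CPM, and those 8 are printed instead. Members of at least 1 CPM, the highest of each position group and members passing the test were to be named. Others, with 5 or fewer reads or singled out by position, sequence or a nearby name, were picked with their values in view. The members, lists and alternatives were chosen with earlier results of these data known. The procedures were checked on simulated counts and sequences. The simulated counts held counting error only, so that check does not cover the wider differences between these libraries.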

Additional observations from a re-analysis of the deposited data

How the results depend on the processing

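The number of detected members stayed between 9 and 11 under the other detection limits, the unstranded column, the wider name rule and without either replicate, but was 22 when any read in either library sufficed. The share of counts was 0.445% in the unstranded column, 0% in the opposite-strand column and 0.203% of all reads listed, where the denominator includes reads given to no gene. With that denominator 9 of 11 named levels moved by more than the replicate SD. The unstranded column moved none of the 11. With 2 libraries, leaving out either one cannot move a mean by more than the SD, and Mir297a-2 went from 5.41 CPM to 2.96 without replicate 1 and 7.87 without replicate 2. The share from Sfmbt2 stayed at or above 99.99% in each setting tried. The median ratio of the members stayed negative, from -0.19 to -0.15. The 5 called members became 4 with total counts, where Mir669o was lost, and 0 in edgeR's exact test with a coefficient of variation of 10%, and stayed at 5 with DESeq2 size factors, upper-quartile scaling and a filter at 1 CPM. Whole mature sequences were shared by 1 of 8 members, runs of 16 bases by 7 of 8, and runs of 18, 20 and 25 transcript bases by 66, 65 and 63 of 67. The limits of 18 and 25 bases and the wider name rule were chosen after seeing the data. No paired analysis was possible because there is a single group. A count of 0 bounds only reads with a single mapping place. Depth thus sets no upper limit for the 19 array members with no unique window, or for Mir669a-2.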
